A study of Homo sapiens with 18 samples.

Results

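The genes described here are members of the Notch pathway: the receptors NOTCH1, NOTCH2 and NOTCH3, the ligands JAG1, JAG2 and DLL1, the receptor-modifying enzyme LFNG, the target genes HES1 and NRARP, and the regulator DTX4. They were chosen by name, as the rows of the expression table that carry these gene symbols. Of the 10 listed genes, 9 had a row among the 12853 genes of the table, and DLL1 was not analysed here. RNA was sequenced from 6 ovarian cancer cell lines in 3 pairs, with 3 libraries per line and 18 in all. In each pair a line labelled sensitive to platinum was compared with a resistant counterpart, which asks how expression differs once platinum resistance has been acquired. A2780 and its cisplatin-resistant derivative CP70, which arose in vitro, are labelled as endometrial or ovarian cancer cells. PEA1 and PEA2 came from ascites of a patient with high-grade serous ovarian cancer before platinum and at relapse. PEO1 and PEO4 came from another patient with this cancer, before and after clinical resistance developed, both of them after platinum-based treatment. All lines were grown in the same serum-supplemented medium, and the labels give no drug treatment of these cultures. Each condition of a pair is therefore a single line, so resistance cannot be told apart from any other difference between the lines of a pair. Nothing in the labels says that the replicates of a line were separate cultures, so the p-values measure only the spread between these libraries, which may be technical.

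Notch receptors are cell-surface proteins that are activated by ligands of the Jagged and Delta-like families on a neighbouring cell. Ligand binding leads to cleavage of the receptor by an ADAM protease and gamma-secretase, and the released intracellular domain enters the nucleus, where it joins the DNA-binding protein RBPJ and Mastermind co-activators at target genes. HES1, a transcriptional repressor, and NRARP, a short-lived inhibitor of the pathway, are classical targets of this complex, and the pathway is studied in ovarian cancer for its links to growth and drug response.

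The RBPJ complex acts at target gene promoters, so the 250 bases upstream of the annotated start of the target genes HES1 and NRARP are printed here, 5′ to 3′ on the strand of the gene, from RefSeq on GRCh38.p14. Capitals mark each match to TGGGAA, or to TTCCCA for the opposite strand, the core of the RBPJ binding motif.
HES1, plus strand of chr3:194135898-194136147: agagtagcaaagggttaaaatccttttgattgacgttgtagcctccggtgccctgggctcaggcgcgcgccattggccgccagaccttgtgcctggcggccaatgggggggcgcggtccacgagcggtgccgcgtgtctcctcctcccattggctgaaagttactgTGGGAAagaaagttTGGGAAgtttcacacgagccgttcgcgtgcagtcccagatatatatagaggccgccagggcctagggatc
NRARP, minus strand of chr9:137302272-137302521: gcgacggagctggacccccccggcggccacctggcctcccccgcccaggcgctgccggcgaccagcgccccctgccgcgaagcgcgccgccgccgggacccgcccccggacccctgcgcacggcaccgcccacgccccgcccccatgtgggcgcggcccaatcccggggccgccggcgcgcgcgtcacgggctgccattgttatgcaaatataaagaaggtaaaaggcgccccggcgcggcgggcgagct
The HES1 window held 2 matches, which began 84 and 70 bases before the start of the gene. The NRARP window held 0 matches, which says only that these letters are not in this stretch. RefSeq gave 11 windows for the 9 members, since some have more than 1 annotated start, and 2 of the 11 held a match: that of HES1 and a second window of LFNG. Among all 35116 promoter windows of this length, 20.8% held at least 1 match and 2.90% held at least 2.

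Expression was deposited as log2 CPM, read counts scaled to an adjusted size of each library. The adjusted size was not the plain read total. It was 1.87e+06 for PEA2 replicate 1, which held 2130465 reads on listed genes. For PEA1 replicate 1 it was 1.38e+06, with 1344098 such reads. The reads on listed genes ranged from 1344098 to 7067336 per library (median 2926659). A count of 3 reads, taken here as the floor, thus stood for 0.452 to 2.18 CPM. Calls were not filtered at this floor, and some of those below rest on libraries with fewer reads. Libraries of the same line varied beyond counting noise, with a chi-square per degree of freedom of 1.75 to 13.8 over 18 replicate pairs. The serous marker PAX8 was absent or nearly so in A2780 and CP70 (at most 0 and 1 reads) and high in the other lines, with means of 7.30 to 8.35 on the log2 CPM scale. Marker levels also differed within pairs. The summed level of the 7 epithelial markers was 429 to 589 CPM in PEA1 and 2843 to 3166 CPM in PEA2, with PAX8 (8.35 and 8.33 log2 CPM) and WT1 (2.64 and 2.91) much alike in both. COL1A1, a fibroblast collagen, was 8.62 in PEA1 and 1.95 in PEA2 on the log2 CPM scale, while DCN and LUM, the other fibroblast markers in the table (3 of 4 had a row), had 0 reads in both lines, so that the summed level of 367 to 449 CPM against 3.60 to 4.80 CPM was that of COL1A1. The leukocyte marker PTPRC (1 of 5 in the table) and the endothelial marker CDH5 (1 of 3) were at 20.3 to 25.3 CPM and 25.5 to 36.4 CPM in PEA2. Both had 0 reads in PEA1. In the A2780 pair the epithelial markers summed to 2.66 to 4.25 CPM in A2780 and 91.1 to 96.6 CPM in CP70, where PAX8, WT1, MUC16 and KRT7 stayed at or below 4 reads. The fibroblast markers summed to 6.32 to 13.2 CPM and 37.7 to 41.9 CPM, with DCN and LUM higher in CP70 and COL1A1 at 2.71 and 2.22 log2 CPM. In the PEO pair the epithelial markers summed to 6258 to 7268 CPM in PEO1 and 4403 to 5988 CPM in PEO4, but the markers went both ways. KRT7 was at 10.93 log2 CPM in PEO1 and 8.49 in PEO4 and MUC16, KRT8 and KRT18 were also lower in PEO4, whereas PAX8 (7.30 and 7.95), WT1 (6.49 and 7.93) and EPCAM (8.45 and 8.92) were higher. The part of these shifts in the Notch results was not tested, and in bulk RNA fewer cells of a type and less RNA per cell cannot be told apart.

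The Notch genes did not move as a block with resistance. In what follows, changed means an FDR below 0.05 in limma (moderated linear models, Benjamini-Hochberg over 12853 genes), and log2FC is the resistant minus the sensitive line. In the A2780 pair 2 of the 9 genes changed, LFNG and DTX4, both upward. That is 22.2% of the members, against 39.9% of all genes tested (22.2% higher and 17.7% lower in CP70). In the PEA pair 6 of 9 changed: NOTCH3, HES1 and DTX4 rose, and NOTCH1, NOTCH2 and LFNG fell. This share of 66.7% stood beside 61.9% of all genes (32.5% higher and 29.4% lower in PEA2). In the PEO pair 7 of 9 changed: HES1, NRARP and DTX4 rose, and NOTCH1, NOTCH3, JAG1 and JAG2 fell. Here the members' share was 77.8%, against 41.5% of all genes (19.6% higher and 21.9% lower in PEO4). Leaving out each library in turn gave 2 to 3, 5 to 6 and 5 to 7 members in the A2780, PEA and PEO pairs. In the PEO pair the calls of NOTCH3 and NRARP were lost in some settings, as given below. The members were chosen with earlier results of these data known, so these shares only describe the list. The median log2FC of the 9 genes was -0.05, 0.14 and -0.17 in the A2780, PEA and PEO pairs, and that of all genes was -0.03, 0.01 and -0.02. With the stricter rule of |log2FC| above 2 and FDR below 0.05, 0, 1 and 1 members were left, NOTCH3 in the PEA pair and JAG1 in the PEO pair. Of all genes, 9.06%, 14.1% and 6.22% passed that rule. The libraries of the 2 lines did not overlap for 4, 6 and 7 of the 9 genes in the A2780, PEA and PEO pairs, against 54.6%, 62.6% and 57.5% of all genes.

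**Figure D1:**
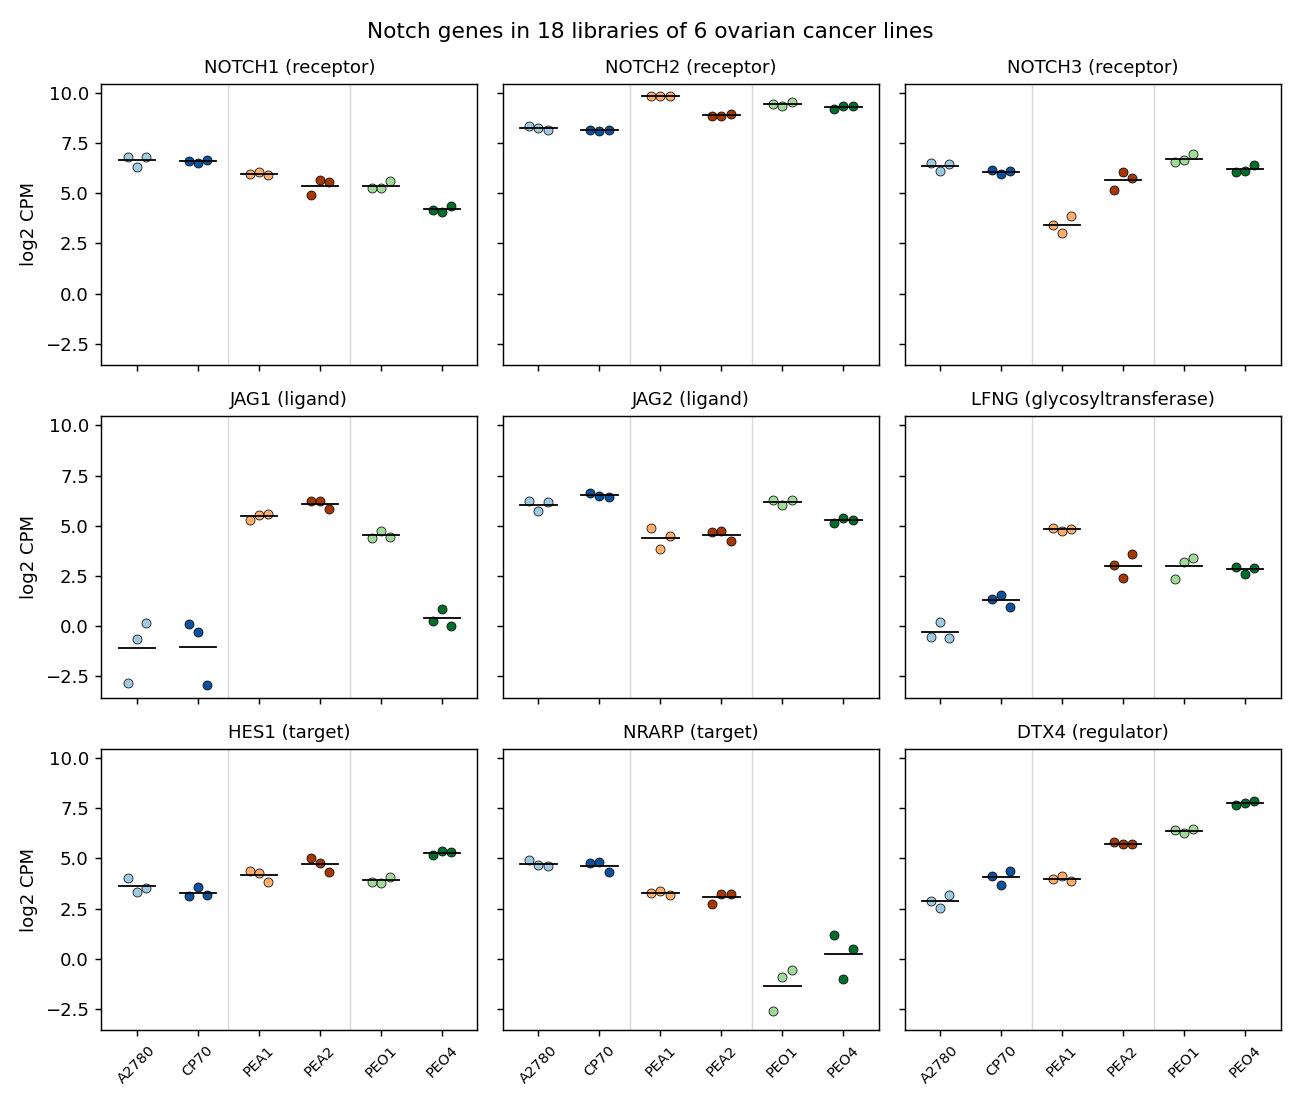
Expression of the 9 Notch genes in each library, in log2 CPM (y axis), with a panel per gene and the 6 lines along the x axis. Points are libraries and bars are line means; JAG1 dropped from 4.40 to 4.76 in PEO1 to 0.02 to 0.88 in PEO4, and DTX4 was higher in the resistant line of every pair.

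NOTCH3 was the receptor with the largest change. The gene (ENSG00000074181) lies on the minus strand of chromosome 19 (GRCh37, 15269849 to 15311806) and overlaps no other annotated gene. Its log2 CPM was 3.40, 3.03 and 3.87 in the PEA1 libraries, from 11 to 25 reads, and 5.17, 6.06 and 5.74 in the PEA2 libraries, from 67 to 231 reads. Every PEA2 library was above every PEA1 library, and the mean went from 3.44 ± 0.42 to 5.65 ± 0.45 (SD, n = 3 libraries each). The rise was 4.66-fold, a log2FC of 2.22 ± 0.21 (SE, limma FDR 1.76e-08). In the PEO pair the libraries were at 6.55, 6.64 and 6.97 in PEO1 and at 6.07, 6.12 and 6.39 in PEO4, lower in the resistant line without overlap. The log2FC was -0.53 ± 0.21 (limma FDR 0.0473), a call that was lost in 13 of 25 alternative settings, among them without PEO1 replicate 3 (-0.41, limma FDR 0.190), without PEO4 replicate 1 (FDR 0.139) and without PEO4 replicate 2 (FDR 0.120). The others were without PEO1 replicate 2 (FDR 0.0718), with quantile normalization (FDR 0.0702), without the variance trend (FDR 0.0824), and without A2780 replicate 1 or 3, any CP70 replicate, PEA1 replicate 1 or PEA2 replicate 3 (FDR 0.0509 to 0.0569), which leave the log2FC as it is and move only the shared spread. In A2780 NOTCH3 was at 6.50, 6.10 and 6.46, and in CP70 at 6.18, 5.94 and 6.09, with overlapping libraries (log2FC -0.29 ± 0.21, limma FDR 0.300). Set against the PEO pair, the log2FC of NOTCH3 in the PEA pair was higher by 2.75 (limma FDR 1.53e-07), and the A2780 minus PEA difference was -2.50 (FDR 5.40e-07). PEA1 stood apart from the other lines as the line with the least NOTCH3, since all its libraries lay below those of the next lowest line, PEA2. PEO1 was highest, and A2780, PEO4, CP70 and PEA2 overlapped with their neighbours in that order.

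NOTCH1 fell in both patient-derived pairs. The gene (ENSG00000148400) lies on the minus strand of chromosome 9 (139388885 to 139440500) and spans the microRNA gene MIR4673 on its own strand and a long noncoding RNA on the opposite strand. In PEO1 its log2 CPM was 5.24, 5.25 and 5.59, and in PEO4 it was 4.18, 4.07 and 4.36. The PEO4 libraries all lay below those of PEO1, and the level fell 2.23-fold (log2FC -1.15 ± 0.17, limma FDR 1.89e-05). In PEA1 the values were 5.96, 6.07 and 5.91, and in PEA2 they were 4.91, 5.65 and 5.54. The PEA2 libraries were lower without overlap, by a smaller amount and with a wider spread (log2FC -0.61 ± 0.17, limma FDR 0.00453), and the difference between the PEA and PEO pairs of 0.54 did not pass the test (FDR 0.0639), though it did without PEA2 replicate 1 (0.77, FDR 0.00427) and without A2780 replicate 2 (FDR 0.0450). NOTCH1 was highest in A2780 (6.79, 6.30 and 6.82) and CP70 (6.61, 6.49 and 6.66), which overlapped each other (log2FC -0.05 ± 0.17, FDR 0.848). Between the A2780 and PEO pairs the log2FC differed by 1.10 (limma FDR 0.000926).

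NOTCH2 (ENSG00000134250, minus strand of chromosome 1, 120454176 to 120643366) was the most abundant of the 3 member receptors per exon length in each line. Near-identical partial copies of the gene, the NOTCH2NL genes, can share its reads, so its values are uncertain. NOTCH2 was at 9.82 log2 CPM in all 3 PEA1 libraries and at 8.87, 8.83 and 8.94 in PEA2. It thus fell 1.92-fold in the PEA pair, far beyond the spread between libraries (log2FC -0.94 ± 0.08, limma FDR 2.57e-09). NOTCH2NL, which has its own row, did not pass the test in that pair (log2FC -0.21, FDR 0.217). The PEO1 libraries were at 9.44, 9.36 and 9.55 and the PEO4 libraries at 9.19, 9.33 and 9.32, separate but with a log2FC of only -0.17 ± 0.08 (limma FDR 0.0827). With voom weights or quantile normalization this fall passed the test (FDR 0.0331 and 0.0495). A2780 (8.33, 8.22 and 8.17) and CP70 (8.16, 8.08 and 8.15) were lowest (log2FC -0.11 ± 0.08, limma FDR 0.296). The fall in the PEA pair differed from the log2FC of the PEO pair by -0.77 (FDR 5.86e-06) and from that of the A2780 pair, which was higher by 0.83 (FDR 2.10e-06).

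To compare the receptors with each other, expression was divided by the merged exon length of each gene (RPKM, reads scaled to exon length and adjusted library size). The remaining Notch receptor had no row, so the sums cover NOTCH1, NOTCH2 and NOTCH3 only. The doubt about NOTCH2 reads carries over to these shares. NOTCH2 gave 52.0% ± 4.36 (SD, n = 3) of the summed receptor RPKM in A2780 and 53.1% ± 0.932 in CP70. NOTCH1 and NOTCH3 shared the rest of the A2780 pair in like amounts, with 23.0% and 25.02% in A2780 and 24.3% and 22.6% in CP70. PEA1 was dominated by NOTCH2, at 89.7% ± 0.219, with 1.91% ± 0.583 for NOTCH3. In PEA2 NOTCH3 made up 14.8% ± 3.68 and NOTCH2 76.2% ± 5.43. NOTCH3 exceeded NOTCH1 per length in PEA2, PEO1 and PEO4, where NOTCH1 gave 9.004%, 5.80% and 3.15% and NOTCH3 gave 14.8%, 19.9% and 16.7%. In PEA1 the order was the other way around, with 8.36% ± 0.502 for NOTCH1. The summed receptor RPKM was 59.99 in PEA1 and 36.95 in PEA2. Over the same pair NOTCH2 went from 53.8 to 28.1 RPKM and NOTCH3 from 1.15 to 5.50 RPKM.

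**Figure D2:**
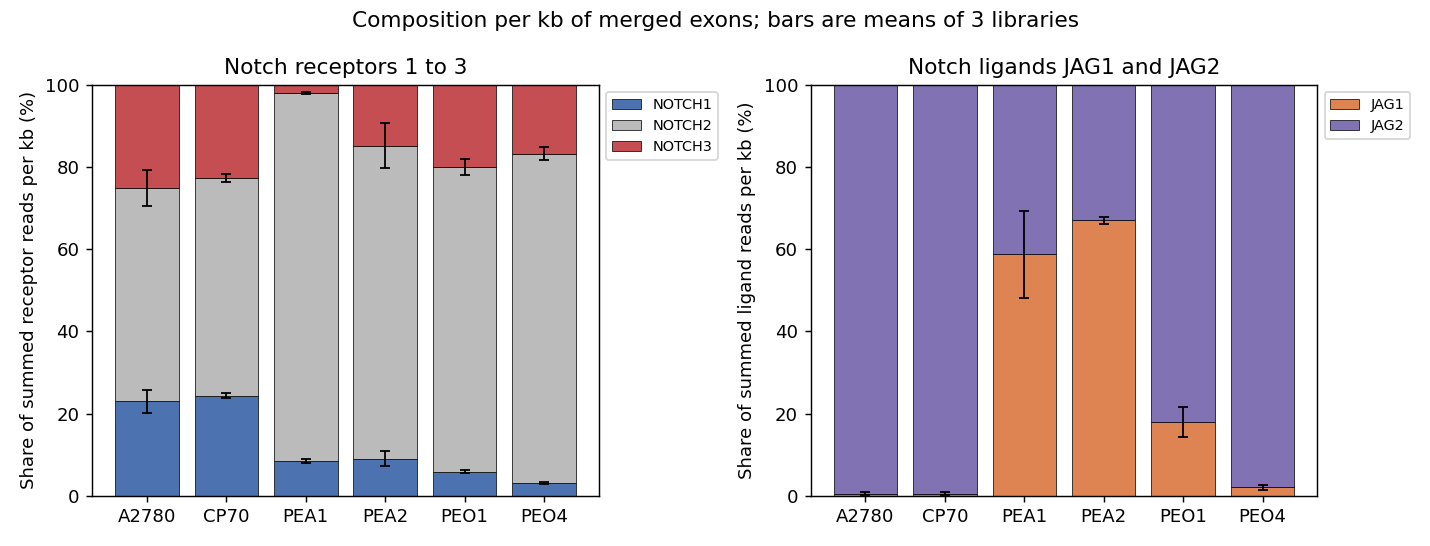
Share of each receptor (NOTCH1, NOTCH2, NOTCH3) and each ligand (JAG1, JAG2) in the summed RPKM of its family, in percent on the y axis, for the 6 lines on the x axis. Stacked bars are means over 3 libraries, and an error bar at the top of a segment is the SD of that segment's share. NOTCH2 ranged from 52.0% in A2780 to 89.7% in PEA1, and JAG1 from 0.498% in A2780 to 67.0% in PEA2.

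JAG1, a Jagged ligand, had the largest change among the members. The gene (ENSG00000101384) lies on the minus strand of chromosome 20 (10618332 to 10654647) opposite a long noncoding RNA. The PEO1 libraries were at 4.40, 4.76 and 4.44 log2 CPM, from 64, 75 and 144 reads. The PEO4 libraries were at 0.28, 0.88 and 0.02, from 3, 5 and 2 reads. All PEO4 libraries were thus close to the level of 3 reads, while those of PEO1 were far above it. The log2FC was -4.14 ± 0.66 (limma FDR 3.63e-05), and the 283 reads of PEO1 against the 10 of PEO4 gave an 18.9-fold higher level in PEO1 (95% exact interval 10.1 to 39.9, counting error only). Over 25 alternative settings the log2FC ran from -5.50, with quantile normalization, to -3.65, and the call was kept in each. In the PEA pair JAG1 was at 5.28, 5.52 and 5.60 in PEA1 and at 6.22, 6.24 and 5.85 in PEA2. The PEA2 libraries were higher without overlap, but the log2FC of 0.64 ± 0.66 did not pass the test (limma FDR 0.413). The SE of the common fit also takes in the A2780 and CP70 libraries, whose JAG1 values spread by 1.55 and 1.65 (SD, log2) at 0 to 6 reads. In a fit of the PEA pair alone the same difference had an FDR of 0.00749, and with voom weights, which give low counts less weight, 0.0145. A2780 held 0, 2 and 2 reads of JAG1 and CP70 6, 3 and 0, so no difference could be read there at this depth. Against the PEO pair, the log2FC was higher by 4.78 in the PEA pair (limma FDR 0.000193) and by 4.21 in the A2780 pair (FDR 0.000896). With quantile normalization these differences were 6.02 and 5.18. The latter, without that normalization, ran from 3.34 without A2780 replicate 1 to 5.16 without CP70 replicate 3, and was 4.84 without A2780 replicate 3, and these libraries held 0 to 2 reads of JAG1.

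JAG2, the other Jagged ligand, was found in every library. The gene (ENSG00000184916) lies on the minus strand of chromosome 14 (105607319 to 105635161) and overlaps a long noncoding RNA on the same strand, so reads of the pair may be split or shared. Its log2 CPM was 6.27, 6.03 and 6.29 in PEO1 and 5.12, 5.40 and 5.28 in PEO4. JAG2 thus fell with JAG1 in the PEO pair, 1.91-fold and without overlap (log2FC -0.93 ± 0.20, limma FDR 0.000902). In A2780 it was at 6.24, 5.73 and 6.21 and in CP70 at 6.62, 6.48 and 6.44. The CP70 libraries were all higher, with a log2FC of 0.45 ± 0.20 that did not pass the test (limma FDR 0.0833) and that did pass with the pair fitted alone (FDR 0.0158), with voom weights (FDR 0.00553) and without PEA1 replicate 1 (FDR 0.0466) or PEA1 replicate 2 (FDR 0.0302). The lowest levels were those of PEA1 (4.88, 3.87 and 4.51) and PEA2 (4.69, 4.72 and 4.25), which overlapped (log2FC 0.14 ± 0.20, FDR 0.577). The PEA and A2780 pairs exceeded the PEO pair in log2FC by 1.06 and 1.38 (limma FDR 0.00339 and 0.000490).

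The lines thus differed in which Jagged ligand they expressed. Per length, JAG1 was 58.7% ± 10.6 of the summed JAG1 and JAG2 RPKM in PEA1 and 67.0% ± 0.769 in PEA2 (SD, n = 3). In PEO1 it was 17.96% ± 3.58, and in PEO4 2.04% ± 0.615, so JAG2 made up nearly all of the Jagged RNA there. CNTN1, described below as a non-classical ligand, is not in this sum. Its mean was 107 CPM in PEO1 and 6.96 CPM in PEO4, against 73.4 and 38.4 CPM for JAG2. In A2780 and CP70 JAG1 was 0.498% and 0.4105%, from at most 6 reads in a library. The summed JAG1 and JAG2 RPKM was 13.96 in PEO1 and 6.13 in PEO4.

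LFNG (lunatic fringe) adds sugars to Notch receptors and so alters which ligands they answer to. The gene (ENSG00000106003) lies on the plus strand of chromosome 7 (2552163 to 2568811) and overlaps the microRNA gene MIR4648. It moved in opposite directions in 2 of the pairs. In PEA1 it was at 4.88, 4.74 and 4.83 log2 CPM and in PEA2 at 3.05, 2.41 and 3.60, so every PEA2 library was lower. The fall was 3.47-fold (log2FC -1.80 ± 0.35, limma FDR 0.000190). In A2780 LFNG was near the floor, at -0.52, 0.22 and -0.58 from 2, 4 and 1 reads, and in CP70 it was at 1.34, 1.57 and 0.98 from 15, 12 and 7 reads. All CP70 libraries were higher (log2FC 1.59 ± 0.35, limma FDR 0.00111), and 34 against 7 summed reads gave a ratio of 3.33 (95% exact interval 1.45 to 8.90, counting error only). With quantile normalization, which forces the same distribution on every library, the log2FC was 0.59 and the call was lost (FDR 0.281). The PEO1 libraries (2.34, 3.19 and 3.41) overlapped those of PEO4 (2.96, 2.63 and 2.91), with a log2FC of -0.15 ± 0.35 (FDR 0.773). In log2FC the A2780 pair exceeded the PEA pair by 3.39 (limma FDR 9.01e-06) and the PEO pair by 1.74 (FDR 0.00713). The latter was 0.76 with quantile normalization (FDR 0.292). The PEA minus PEO difference was -1.65 (FDR 0.00800).

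HES1 rose most in the PEO pair, where both Jagged ligands and NOTCH1 fell. The gene (ENSG00000114315) lies on the plus strand of chromosome 3 (193853937 to 193856521), its promoter holds the pair of motif matches printed above, and no other annotated gene overlaps it. The PEO1 libraries were at 3.83, 3.78 and 4.10 log2 CPM and the PEO4 libraries at 5.16, 5.36 and 5.32. Every PEO4 library was higher, and the level rose 2.60-fold (log2FC 1.38 ± 0.23, limma FDR 6.51e-05). In the PEA pair HES1 was at 4.37, 4.29 and 3.82 in PEA1 and at 5.04, 4.77 and 4.31 in PEA2. The mean was higher in PEA2, but PEA2 replicate 3 lay within the range of PEA1 (log2FC 0.54 ± 0.23, limma FDR 0.0466). That call was lost in 16 of 25 alternative settings, such as without PEA1 replicate 3 (0.37, FDR 0.200), without PEA2 replicate 1 (0.38, FDR 0.199), without PEA2 replicate 2 (FDR 0.102) or with the pair fitted alone (FDR 0.105). It was also lost with quantile normalization (FDR 0.0629), voom weights (FDR 0.0545) or 2 reads added (FDR 0.0516), and without PEA1 replicate 2, CP70 replicate 1 or 3, or any PEO1 or PEO4 replicate (FDR 0.0502 to 0.0565). A2780 (4.03, 3.35 and 3.51) and CP70 (3.13, 3.58 and 3.18) overlapped (log2FC -0.33 ± 0.23, limma FDR 0.274). The A2780 pair lay below the PEO pair in log2FC, a difference of -1.71 (limma FDR 0.000217), and below the PEA pair, a difference of -0.88 (FDR 0.0270). The PEA pair differed from the PEO pair by -0.83 (FDR 0.0339). PEO4 was the line with the most HES1, above PEA2 without overlap, while the other 5 lines overlapped with their neighbours.

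NRARP (ENSG00000198435, minus strand of chromosome 9, 140194083 to 140196723, opposite a long noncoding RNA) showed a pattern between lines unlike that of HES1. It was highest in A2780 (4.90, 4.68 and 4.61 log2 CPM) and CP70 (4.79, 4.81 and 4.33), which overlapped (log2FC -0.09 ± 0.49, limma FDR 0.913). PEA1 (3.29, 3.37 and 3.16) and PEA2 (2.74, 3.23 and 3.23) were lower and also overlapped (log2FC -0.21 ± 0.49, FDR 0.726). In the PEO lines NRARP was near the floor, with 0, 1 and 4 reads in PEO1 and 6, 1 and 3 in PEO4. The log2FC of the PEO pair was 1.58 ± 0.49 (limma FDR 0.0129), although the libraries overlapped and the 5 against 10 summed reads gave a ratio of 2.99 with an exact 95% interval of 0.932 to 11.2. It was 0.95 without PEO1 replicate 1 (FDR 0.104), 1.11 without PEO4 replicate 1 (FDR 0.0942) and 2.20 without PEO4 replicate 2, and the call was also lost with the pair fitted alone (FDR 0.0638) and with voom weights (FDR 0.0506). The log2FC of the PEA pair lay below that of the PEO pair, with a difference of -1.79 (limma FDR 0.0317). This difference was -1.16 without PEO1 replicate 1 (FDR 0.106) and -2.40 without PEO4 replicate 2.

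DTX4, a Deltex-family E3 ubiquitin ligase, was the member that rose in all 3 pairs. The gene (ENSG00000110042) lies on the plus strand of chromosome 11 (58938903 to 58976061) with the macrophage gene MPEG1, which has no row in the table, on the opposite strand. In A2780 DTX4 was at 2.89, 2.54 and 3.20 log2 CPM, from 20 to 26 reads, and in CP70 at 4.14, 3.69 and 4.39, from 54 to 107 reads. The CP70 libraries were all higher, by 2.29-fold (log2FC 1.20 ± 0.17, limma FDR 1.07e-05). In PEA1 it was at 3.96, 4.13 and 3.87 and in PEA2 at 5.80, 5.70 and 5.70. The PEA2 libraries stood close together above those of PEA1, by 3.35-fold (log2FC 1.74 ± 0.17, limma FDR 3.85e-08). In PEO1 DTX4 was at 6.43, 6.26 and 6.46, from 213 to 584 reads, and in PEO4 at 7.68, 7.74 and 7.86, from 573 to 642 reads. PEO4 thus had the highest level, 2.61-fold above PEO1 without overlap (log2FC 1.38 ± 0.17, limma FDR 2.17e-06). The log2FC of the 3 pairs did not differ from each other at the threshold. The difference was 0.36 between the PEA and PEO pairs (limma FDR 0.212), -0.55 between the A2780 and PEA pairs (FDR 0.0629) and -0.18 between the A2780 and PEO pairs (FDR 0.565). The second of these passed in 4 of 24 alternative settings: with quantile normalization (-0.78, FDR 0.00567) and without A2780 replicate 2 (-0.72, FDR 0.0135), CP70 replicate 3 (-0.70, FDR 0.0206) or PEA1 replicate 2 (-0.62, FDR 0.0495). DTX4 stayed changed in each pair under all 25 alternative settings tried for it, with log2FC ranges of 0.90 to 1.39, 1.67 to 1.81 and 1.32 to 1.43. A change of the same sign in every pair was found for 2.80% of all genes tested.

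**Figure D3:**
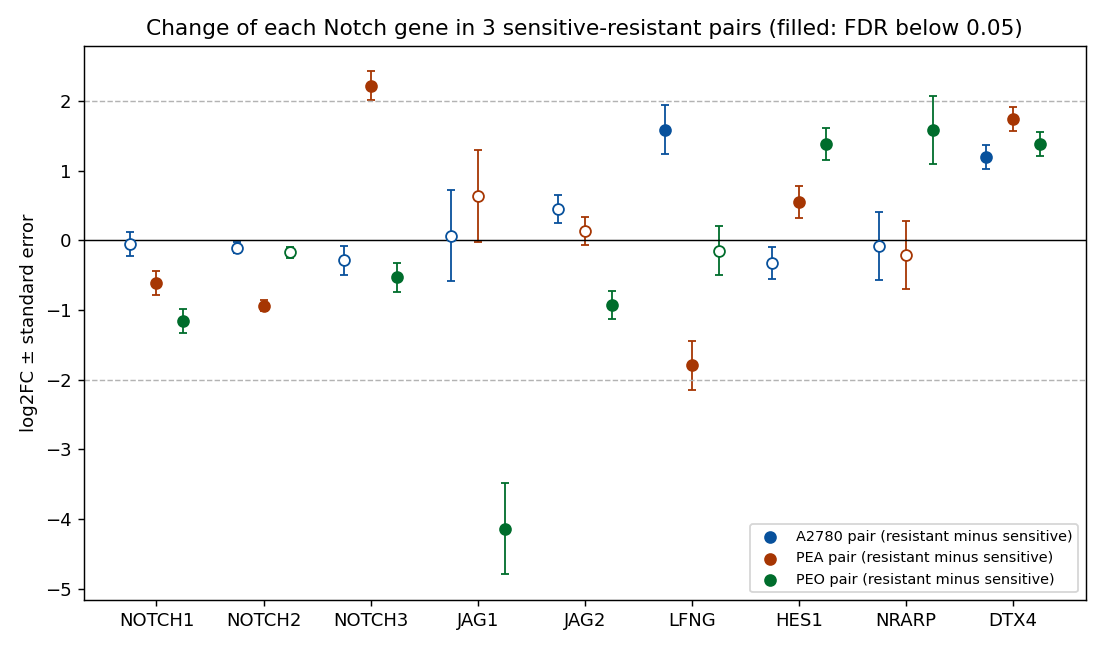
log2FC (resistant minus sensitive line, y axis) of the 9 Notch genes along the x axis, coloured by pair, with bars for the SE of the limma fit; filled points passed an FDR of 0.05, and dashed lines mark a log2FC of 2 and -2. DTX4 lay above 0 in all 3 pairs (1.20, 1.74 and 1.38), NOTCH3 was highest in the PEA pair (2.22) and JAG1 lowest in the PEO pair (-4.14).

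The change with resistance was also compared between pairs. In limma contrasts of the pairs, the log2FC of 7 of the 9 genes differed between the PEA and PEO pairs, against 58.7% of all genes, 4 between the A2780 and PEA pairs (57.5% of all genes) and 5 between the A2780 and PEO pairs (47.5% of all genes). From the highest to the lowest line mean the log2 level spanned 4.89 for DTX4, 3.29 for NOTCH3, and 1.68 to 2.43 for NOTCH1, NOTCH2, JAG2 and HES1. For JAG1, NRARP and LFNG it spanned 7.21, 6.09 and 5.11, but their lowest lines held 0 to 4 reads, so these spans depend on the 0.5 reads added to each count and are not ranked.

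The rest of the pathway moved in both directions in every pair. Of a list of 67 other Notch pathway genes, 51 had a row. In the A2780 pair 14 of these rose and 6 fell (39.2%), in the PEA pair 19 rose and 13 fell (62.7%) and in the PEO pair 12 rose and 14 fell (51%). These shares stood beside the 39.9%, 61.9% and 41.5% of all genes given above, and the median log2FC of the list was 0.08, 0.17 and -0.0044. None of the 3 glycosyltransferases with a row passed the limma test in any pair. Among the 9 genes for receptor cleavage (ADAM proteases, furin and gamma-secretase), 4, 7 and 5 changed in the A2780, PEA and PEO pairs. APH1B, a gamma-secretase subunit, fell in the A2780 pair (log2FC -1.31, limma FDR 0.000772) and in the PEA pair (-1.76, FDR 1.72e-05). Of the 14 genes for endocytosis and ubiquitin ligation, 6, 12 and 6 changed. NEURL1, an E3 ligase of ligand endocytosis, had 0 reads in PEA1 and 137 to 290 in PEA2, at least 38.0-fold higher (against 3 reads per library), and DTX3 fell in that pair (-2.45, FDR 1.33e-06). NEURL1B, a related ligase, rose in the A2780 pair (2.36, FDR 9.26e-08) and the PEA pair (1.95, FDR 7.00e-07) and fell in the PEO pair (-1.02, FDR 0.00178).

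In the nuclear complex, 3, 5 and 5 of 9 genes changed. MAML3, a Mastermind co-activator, had 48 to 92 reads in A2780 and 0 in CP70, at least 33.5-fold lower, and 0 reads in PEA1 against 5 to 7 in PEA2, at least 1.23-fold higher, and it rose in the PEO pair (log2FC 1.18, limma FDR 0.0119). The acetyltransferase KAT2B fell in the PEO pair (log2FC -1.77, limma FDR 0.000157) and rose in the A2780 pair (0.87, FDR 0.0364). Of the 13 co-repressors, 6, 6 and 8 changed. TLE2 rose in the A2780 pair (2.86, FDR 0.000328), and CIR1 rose in the PEO pair (1.59, FDR 0.000843). CNTN1, a contactin described as a non-classical Notch ligand and the only other ligand with a row, fell in the PEO pair together with the Jagged genes (-3.94, FDR 3.30e-06). In the A2780 and PEA pairs CNTN1 had at most 2 reads in any library.

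Across pairs, 3 of the 51 genes changed with the same sign in each pair, against 2.80% of all genes: TLE4 fell, and DTX3L and HES4 rose. The log2FC of TLE4, a Groucho-family co-repressor, was -1.79, -1.51 and -2.21 in the A2780, PEA and PEO pairs, and that of DTX3L, a Deltex-family ligase like DTX4, was 3.65, 1.40 and 1.15. The study itself lists TLE4 among the genes lowered in all 3 resistant lines at |log2FC| above 2. In the fit used here TLE4 passed that threshold in the PEO pair only. HES4 and HES6 were the other HES or HEY genes with a row, 2 of 8 listed. HES4, a repressor related to HES1, rose in the A2780 pair (log2FC 1.14, limma FDR 0.0252). In the PEA pair it had 6 summed reads in PEA1 and 80 in PEA2, a ratio of 7.995 (95% exact interval 3.52 to 22.4), and in the PEO pair 8 in PEO1 and 40 in PEO4, a ratio of 7.48 (3.45 to 18.5). Its log2FC was 2.65 (limma FDR 7.12e-06) and 2.77 (FDR 9.17e-06) there. HES6 rose in the PEA pair, with 2 against 19 summed reads (ratio 5.70, interval 1.37 to 50.4, log2FC 1.88, FDR 0.00158), and had log2FC of 0.31 (FDR 0.630) and 0.22 (FDR 0.745) in the A2780 and PEO pairs.

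**Figure D4:**
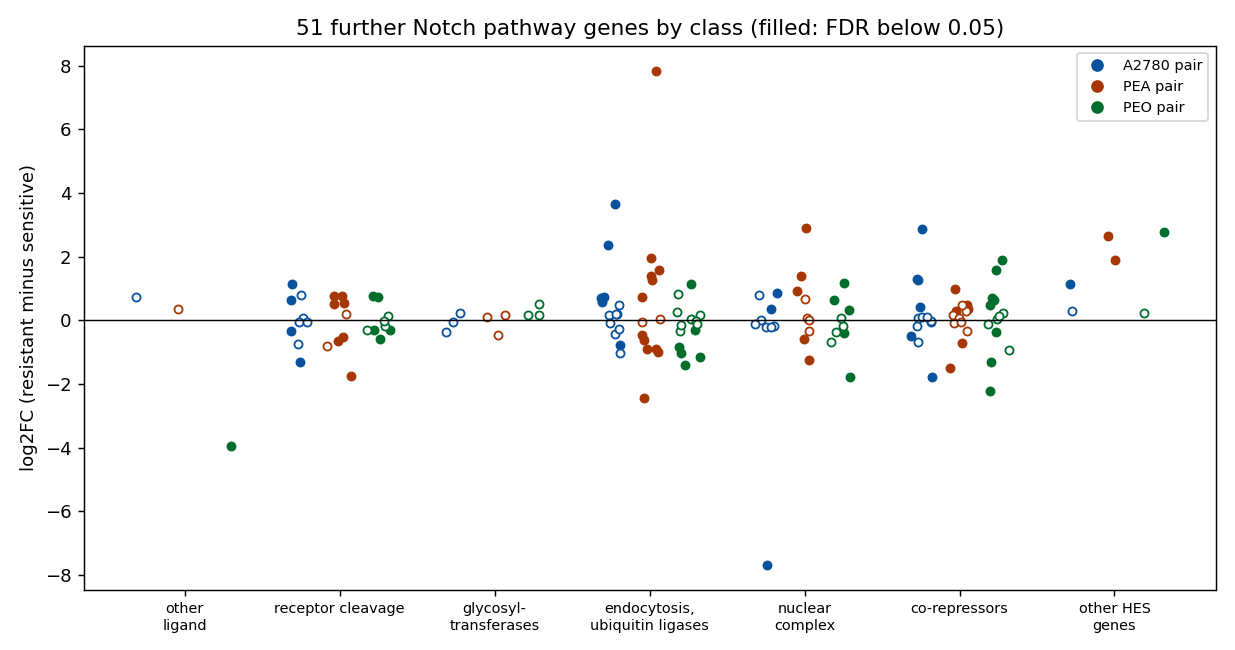
log2FC (resistant minus sensitive line, y axis) of the 51 other Notch pathway genes, grouped by role along the x axis and coloured by pair; filled points passed a limma FDR of 0.05. Points lie on both sides of 0 in each pair, with 14 up and 6 down in the A2780 pair, 19 and 13 in the PEA pair and 12 and 14 in the PEO pair.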

How the data were processed

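RNA-seq of 18 libraries (3 per line, 6 lines) was used. The authors made strand-specific libraries from RNA depleted of ribosomal RNA, assigned reads to known hg19 genes with featureCounts and normalized them with limma; the submitters' processing notes also name Bowtie2. The table they deposited lists 12853 genes as log2 CPM, with each count raised by 0.5 reads. The filter that left these genes and the strand setting of the counting are not given in the sources used here. Whole reads were recovered from 100% of the values (within 0.01 of a read) and gave the depth and the low-read ratios. At low counts the added reads pull log2FC towards 0. Intervals cover counting error only.

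Differences were tested on these deposited log2 values by limma 3.58.1 (R 4.3.3) with a variance trend, in 1 fit with a mean for each line, and pairs were compared by contrasts of this fit. FDR is Benjamini-Hochberg over 12853 genes. The thresholds of |log2FC| above 2 and FDR below 0.05 are those stated for the study. The fit was also run on simulated reads with a common, fixed spread and with changes planted only in genes with many reads. That run does not bear on calls that rest on few reads. Gene spans and exon lengths came from GENCODE on GRCh37, which matched 12642 identifiers and not 211, and may differ from the authors' gene models. RPKM was computed from the recovered reads with these lengths.

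The text names the members and, of the other pathway genes, up to 3 per pair and direction with the largest |log2FC| among those changed without overlap, and every HES or HEY gene with a row. A gene under this rule is not reported here, and counts over the list include it. Against a line with 0 reads in every library, a fold is a lower bound computed with 3 reads per library. Members, lists and tests were chosen with earlier results of these data known. Alternatives were each pair fitted alone, a filter on mean log2 above 0 (355 genes removed), quantile normalization, the replicate number as a block, limma without trend, voom weights, 2 reads added, |log2FC| above 1, and each library left out. Samples were grouped by their labels and none was excluded.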

Additional observations from a re-analysis of the deposited data

Results flagged for a closer look

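Each result listed here is a log2FC that differed between 2 pairs of lines in a limma contrast (FDR below 0.05 over all genes), given as the first pair minus the second, and no cause was tested. PEA minus PEO pair: NOTCH2 -0.77 (FDR 5.86e-06), NOTCH3 2.75 (FDR 1.53e-07), JAG1 4.78 (FDR 0.000193), JAG2 1.06 (FDR 0.00339), LFNG -1.65 (FDR 0.00800), HES1 -0.83 (FDR 0.0339) and NRARP -1.79 (FDR 0.0317). A2780 minus PEA pair: NOTCH2 0.83 (FDR 2.10e-06), NOTCH3 -2.50 (FDR 5.40e-07), LFNG 3.39 (FDR 9.01e-06) and HES1 -0.88 (FDR 0.0270). A2780 minus PEO pair: NOTCH1 1.10 (FDR 0.000926), JAG1 4.21 (FDR 0.000896), JAG2 1.38 (FDR 0.000490), LFNG 1.74 (FDR 0.00713) and HES1 -1.71 (FDR 0.000217). The JAG1 value sets the fall in the PEO pair against lines with 0 to 6 reads per library, where no difference could be read. The LFNG value was 0.76 with quantile normalization (limma FDR 0.292), and A2780 held 1 to 4 reads of LFNG per library. The PEA minus PEO difference of HES1 was lost without PEA2 replicate 3 (-0.64, FDR 0.102) and in 6 other leave-outs, those of PEA1 replicates 1 and 2, PEO1 replicates 1 and 2 and PEO4 replicates 2 and 3. The A2780 minus PEA difference of HES1 was lost in 5, such as without A2780 replicate 1 (-0.68, FDR 0.0849), and those of CP70 replicates 1 and 3, PEA1 replicate 3 and PEA2 replicate 1. The PEA minus PEO difference of NRARP was lost in 6 settings, the leave-outs of PEO1 replicate 1 (-1.16, FDR 0.106), PEO4 replicates 1 and 3, PEA1 replicate 2 and PEA2 replicate 1, and voom weights (FDR 0.0533).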

How the results depend on the processing

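With |log2FC| above 1 in place of 2, 2470, 4320 and 2418 genes and 2, 3 and 5 members passed in the A2780, PEA and PEO pairs. Quantile normalization left 1 member changed in the A2780 pair (LFNG was lost); it moved the median log2FC of all genes in the PEA pair by -0.107 gave JAG1 a log2FC of -5.50 in the PEO pair, and put the pair differences of JAG1 against the PEO pair at 6.02 (PEA) and 5.18 (A2780) and that of LFNG between the A2780 and PEA pairs at 2.58. With 2 reads added, the JAG1 difference between the A2780 and PEO pairs was 3.54. The cause was not tested. Leaving out each library in turn, 1 to 2 members passed |log2FC| above 2 in the PEA pair (LFNG also without PEA2 replicate 3) and 1 to 2 in the PEO pair (NRARP also without PEO4 replicate 2), and 2 to 3, 5 to 6 and 5 to 7 members passed the FDR in the A2780, PEA and PEO pairs. Of 1323 single-gene results over all alternatives, 1244 stayed on their side of the threshold, 53 fell short of it and 26 newly passed, and no called value changed sign. Correlations of same-numbered libraries ran from -0.184 to 0.22, with 3 of 9 over 0.1. Of 18 libraries, 7 correlated best with their own number, 4 of them among the 6 of the A2780 pair. Such weak correlations cannot settle whether same-numbered libraries were prepared together. With the replicate block 2, 6 and 7 members changed, and 0 of 54 single-gene calls differed. Among pair differences that had not passed, those of NOTCH1 between the A2780 and PEA pairs and of NRARP between the A2780 and PEO pairs passed in 6 and 5 of 24 settings. Depth limits JAG1 in A2780, CP70 and PEO4, NRARP in the PEO lines and LFNG in A2780, where libraries held at most 6 reads.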

Other observations

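For 3 members the genes with the most similar pattern were listed by the root mean square (RMS) difference of centred log2 values over the 18 libraries, among 10827 genes with a mean log2 value above 2, as a description with no test. Libraries of a line share their source, so these are in effect patterns over 6 lines. For NOTCH3, whose own RMS spread was 1.10, these were RPS23 (0.430), BTF3 (0.441) and MRI1 (0.449). For JAG1, with a spread of 3.15, they were CLDN11 (0.834), SIRPB1 (0.998) and CD74 (1.06). For HES1, with a spread of 0.701, they were GPAA1 (0.273), PTK2 (0.297) and GOLGA2 (0.300).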
